A study of Mus musculus with 36 samples.

Results

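Setd1a loss was measured in mouse embryonic stem cells (ESC) of the Setd1a line kept in 2i medium, by setting 2 knockout libraries against 2 wild-type libraries of the same line. These are 4 of the 36 RNA-seq libraries of the study, taken by their titles alone, and all 23501 genes that passed a filter on low counts were compared. The 2i medium held LIF with PD0325901, an inhibitor of the kinase MEK, and CT99021, an inhibitor of the kinase GSK3, and both genotypes had it. Titles of the knockout libraries name tamoxifen, an agent commonly used to switch on an inducible recombinase, and titles of the wild-type libraries do not, so the agent and the genotype cannot be told apart. Sources used here do not give the deleted exons or how long cells were treated. Replicates are labelled biological and nothing names separate clones or animals, so the p-values measure the spread between cultures. For the main results this spread was estimated from the replicates of all 36 libraries, across lines and media, and not from this line alone. The other groups used are knockout (with tamoxifen) and wild-type cells of the same line as ESC in FCS medium (serum and LIF) and as EpiSC in a medium with Activin A and FGF2, and the Bod1L and Mll2 lines in 2i, with 2 libraries per group.

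SETD1A is the catalytic subunit of a COMPASS complex, which adds methyl groups to lysine 4 of histone H3, a mark found at the promoters of active genes. BOD1L is a chromatin protein that the study's title names as a subunit of this complex. MLL2 (gene Kmt2b) is the catalytic subunit of a different COMPASS-like complex, which shares with it a core of WDR5, RBBP5, ASH2L and DPY30. ESC in 2i with LIF are held in the naive state of pluripotency, in which NANOG, ESRRB, TFCP2L1 and KLF4 are abundant and genes of the later primed state are low.

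The 4 libraries held 24.5, 25.9, 33.5 and 28.3 M gene counts (knockout replicates 1 and 2, then wild-type replicates 1 and 2, the order used throughout). Knockout replicate 1 has a library number from a later block than the other 3, and shares that block only with the EpiSC libraries. Knockout replicate 2 was rich in ribosomal repeat reads: Gm42418 took 2.65% of its counts against 0.125% to 0.156% of the other 3. Mitochondrially encoded genes took 7.32% and 7.71% of the knockout counts and 4.11% and 3.43% of the wild-type counts. The replicates of a genotype were nonetheless close, with 78 of 11718 genes at 5 CPM or more (0.666%) differing over 2-fold between the knockout libraries and 73 (0.623%) between the wild-type ones. CPM here are counts scaled to library size with TMM factors.

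Cell-state markers were checked against the naive label. The naive markers Tfcp2l1 (1038 and 813 CPM in knockout, 884 and 869 in wild type) and Esrrb (493 and 526 against 534 and 547) stood far above their levels in the wild-type EpiSC libraries of this line (80.0 and 71.5 CPM, and 163 and 133). The whole list of 9 ESC markers, which includes the general pluripotency genes Pou5f1 and Sox2, summed to 3855 and 3861 CPM in knockout and 4068 and 4048 in wild-type cells, against 1213 and 2140 in those EpiSC libraries, and 5 primed markers summed to 93.9 and 106 CPM in knockout and 92.1 and 98.6 in wild type, against 339 and 643 in EpiSC. The primed markers Fgf5 and Otx2 were under 1 CPM in all 4 libraries. Markers of most other cell types were low. The 3 primitive endoderm markers summed to 5.10 to 7.04 CPM and 2 neural markers to 0.862 to 2.30 CPM. The 4 feeder cell markers summed to 8.54 and 6.41 CPM in knockout against 2.54 and 2.79 in wild type. In the EpiSC libraries of the line these feeder markers summed to 3866 and 153 CPM in knockout and 1052 and 126 in wild type, so both libraries of replicate 1 stood apart there. The 4 mesendoderm markers summed to 17.3 and 21.2 CPM against 11.3 and 12.3, and 3 trophoblast markers to 10.1 and 9.76 CPM against 1.80 and 2.96, of which Cdx2 made up 8.50 and 7.44 against 1.25 and 1.92. Zscan4c and Zscan4d, markers of the 2-cell-like state described below, were not low. They summed to 535 and 565 CPM in knockout against 86.4 and 107 in wild type. Cdx2 did not pass the test (log2 fold change 2.33 ± 0.88, SE; adjusted p = 0.233), nor did any other of these markers.

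The targeted gene, Setd1a (ENSMUSG00000042308, chromosome 7, 127776670 to 127800122 on GRCm38, plus strand), held 43.8 and 40.8 CPM in the knockout libraries and 52.3 and 55.3 CPM in the wild-type ones. The groups did not overlap, but the log2 fold change of -0.35 ± 0.24 did not pass the test (adjusted p = 0.583). A gene total includes reads from exons outside a deletion, so this value does not check the labels. Of 21 COMPASS genes 20 passed the filter, Setd1a among them, and 0 were called by edgeR, 0 had an unadjusted p below 0.05 and 0 were called by DESeq2. Their median log2 fold change was -0.01, and the largest differences were in Kmt2a (336 and 261 against 188 and 190 CPM; 0.66 ± 0.36, adjusted p = 0.453) and Psip1, whose product tethers MLL complexes to chromatin (160 and 154 against 281 and 208 CPM; -0.64 ± 0.32, adjusted p = 0.398). Setd1b, the gene of the closest relative of SETD1A, stood at 49.0 and 46.9 CPM against 32.4 and 37.1 (0.46 ± 0.28, adjusted p = 0.512).

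In the main fit, far more genes were called lower than higher without Setd1a, a balance that changed with the fit. At an adjusted p below 0.05, 338 genes were lower (1.44% of those tested) and 59 were higher (0.251%), 397 in all (1.69%), where 3057 had an unadjusted p below 0.05 (7.09% of genes lower and 5.91% higher). The median log2 fold change of all genes tested was 0.00. Lowered genes fell to a median of 34.2% of the wild-type level, a median log2 fold change of -1.55, and 311 of them changed over 2-fold and 92 over 4-fold. Of the raised genes, 57 changed over 2-fold and 29 over 4-fold, with a median of 1.97. Protein-coding genes made up 313 of the lower and 46 of the higher calls. With ribosomal repeat, mitochondrial and small RNA genes removed, the balance stayed close to this, at 335 lower and 55 higher. Some other fits had a smaller excess of lower calls or none. There were 338 lower and 437 higher with no filter on low counts, and 3383 and 3646 with the 4 libraries alone. DESeq2 gave 516 and 309, and a fit with the replicate numbers as a block 1505 and 1405.

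**Figure D1:**
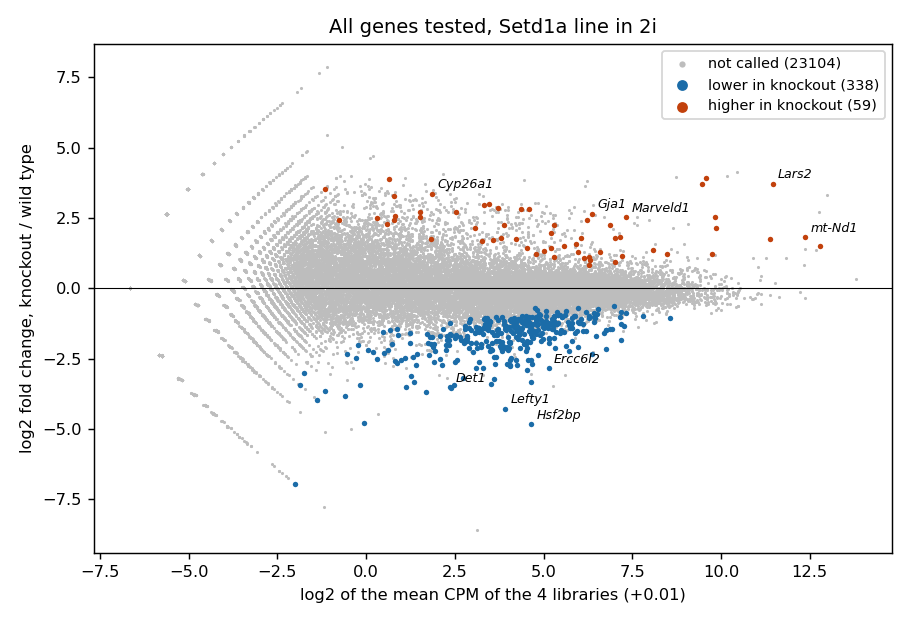
Each point is 1 of the 23501 genes tested; the horizontal axis is the log2 of its mean CPM in the 4 libraries and the vertical axis its log2 fold change of knockout over wild type. Blue points are the 338 genes called lower and orange points the 59 called higher; the lower calls form the larger cloud, and few calls of either kind lie within 2-fold of 0.

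All 338 lower genes and 56 of the 59 higher genes had knockout values that did not overlap the wild-type ones, where 32.8% and 33.3% of all genes tested were separated in the same directions. How many genes were called moved with the libraries used. Leaving out knockout replicate 1 gave 94 lower (0.381%) and 17 higher (0.0689%), which is also the comparison within the earlier block of library numbers, and leaving out knockout replicate 2 gave 63 lower (0.256%) and 10 higher (0.0406%). Without wild-type replicate 1 or 2 there were 139 lower calls each, with 6 and 3 higher. In each such fit the lone library is assumed to vary like the other groups. A call was kept in all 4 fits by 54 lower genes (0.23%) and by 3 higher genes (0.0128%), which were Cyp26a1, Marveld1 and mt-Nd3. With the replicate numbers as a block, 1505 genes were lower (6.4%) and 1405 higher (5.98%), and 394 of the 397 calls were among them. DESeq2 gave 516 lower (2.54%) and 309 higher (1.52%).

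Among called protein-coding genes with at least 5 CPM in the higher group and no overlap, the lowest was Hsf2bp, which codes for a partner of recombination proteins known from meiosis. Its level was 1.89 and 1.49 CPM in knockout and 49.9 and 46.8 CPM in wild-type cells, 3.49% of wild type (-4.84 ± 0.58, adjusted p = 4.1e-05). The libraries of each genotype lay close together and far from those of the other, and the call held without each library in turn. Det1, an adaptor of a CUL4 ubiquitin ligase, was at 0.739 and 0.910 CPM against 9.68 and 9.16 (-3.51 ± 0.29, adjusted p = 4.46e-07). Ercc6l2, which codes for a SNF2-type ATPase of DNA repair, was at 8.91 and 8.48 CPM against 66.1 and 57.7 (-2.83 ± 0.24, adjusted p = 4.46e-07). These 2 had the smallest p-values of all genes tested, and the separation of their groups was part of the rule. Mcm8, a helicase of homologous recombination, was at 6.20 and 4.88 CPM against 42.4 and 39.5 (-2.88 ± 0.33, adjusted p = 2.37e-05), and its call also held in all 4 fits.

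The other genes among the 12 lowest were of varied function. Ccdc91, a trans-Golgi protein gene, fell from 23.5 and 20.2 CPM to 2.38 and 2.36 (-3.20 ± 0.38), and the coiled-coil gene Ccdc191 fell from 21.1 and 20.3 CPM to 2.14 and 1.82 (-3.39 ± 0.44). Znrd1as fell from 10.7 and 9.58 CPM to 0.904 and 0.951 (-3.45 ± 0.51). All 3 were called without each library in turn. Cbr4, a carbonyl reductase of mitochondrial fatty acid synthesis, and Cep41, a centrosomal protein gene, held in 3 of the 4 fits, with log2 fold changes of -3.54 and -3.20. C330018D20Rik (-3.69) and Ap3b2 (-3.34), the beta subunit of an adaptor complex known from neurons, held in 2. Lefty1, a secreted inhibitor of Nodal, was at 1.23 and 1.74 CPM against 25.1 and 32.7 (-4.28 ± 1.05, adjusted p = 0.0348), and its call held in 0 of the 4 fits (adjusted p from 0.104 to 0.36).

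RefSeq promoter windows on GRCm38.p6, from 250 bases before to 50 after the annotated start, are shown for 3 of the 12 lowest genes that hold the letters of an ETS factor site (CCGGAAG on either strand, in capitals), for Hsf2bp, which does not, and for Cyp26a1, the highest gene by the same rule. Det1 lies at chr7:78847162-78847461, minus strand, Mcm8 at chr2:132815891-132816190, plus strand, Ccdc91 at chr6:147475621-147475920, plus strand, Hsf2bp at chr17:32034459-32034758, minus strand, and Cyp26a1 at chr19:37697558-37697857, plus strand. Each runs 5′ to 3′ along its gene.
Det1: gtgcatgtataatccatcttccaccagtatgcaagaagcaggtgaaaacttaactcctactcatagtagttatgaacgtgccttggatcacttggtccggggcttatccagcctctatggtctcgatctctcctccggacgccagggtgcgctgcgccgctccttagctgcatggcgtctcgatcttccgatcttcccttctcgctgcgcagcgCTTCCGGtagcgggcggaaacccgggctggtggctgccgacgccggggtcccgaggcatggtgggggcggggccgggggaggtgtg
Mcm8: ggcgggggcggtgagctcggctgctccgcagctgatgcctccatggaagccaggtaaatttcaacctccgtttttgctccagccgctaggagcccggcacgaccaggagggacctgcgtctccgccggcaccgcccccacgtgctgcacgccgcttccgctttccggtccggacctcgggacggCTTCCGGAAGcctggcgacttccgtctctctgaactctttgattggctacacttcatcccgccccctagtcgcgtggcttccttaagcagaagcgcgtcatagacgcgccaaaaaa
Ccdc91: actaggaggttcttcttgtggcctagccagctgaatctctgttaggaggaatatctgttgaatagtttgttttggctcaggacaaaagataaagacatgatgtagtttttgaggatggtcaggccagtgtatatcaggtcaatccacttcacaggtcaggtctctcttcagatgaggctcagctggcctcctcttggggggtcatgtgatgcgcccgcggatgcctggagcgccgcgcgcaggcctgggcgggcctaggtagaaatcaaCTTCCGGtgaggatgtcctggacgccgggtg
Hsf2bp: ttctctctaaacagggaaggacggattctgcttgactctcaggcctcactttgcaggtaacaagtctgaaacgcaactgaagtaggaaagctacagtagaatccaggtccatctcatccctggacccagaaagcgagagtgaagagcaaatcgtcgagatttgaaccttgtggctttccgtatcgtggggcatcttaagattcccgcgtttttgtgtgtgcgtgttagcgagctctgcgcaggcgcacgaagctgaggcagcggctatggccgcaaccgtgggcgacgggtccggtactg
Cyp26a1: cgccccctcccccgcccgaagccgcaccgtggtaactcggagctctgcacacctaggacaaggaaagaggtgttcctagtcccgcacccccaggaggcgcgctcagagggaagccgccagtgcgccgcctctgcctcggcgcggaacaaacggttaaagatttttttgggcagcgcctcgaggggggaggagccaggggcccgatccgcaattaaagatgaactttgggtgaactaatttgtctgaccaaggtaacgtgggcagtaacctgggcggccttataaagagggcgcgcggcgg
The letters start 36 bases before the RefSeq start in Det1 and 19 after it in Ccdc91. In Mcm8, 2 matches on opposite strands, 66 and 63 bases before the start, overlap. The window of Cyp26a1 holds the letters TATAAA, which the other 4 do not. These letters lie after the RefSeq start, within the last 50 bases of the window.

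The highest genes by this rule came from several pathways, and few of their calls held. Cyp26a1, the enzyme that breaks down retinoic acid, rose from 0.611 and 0.662 CPM to 7.60 and 5.54 (3.36 ± 0.55, adjusted p = 0.00119). Marveld1, a membrane protein gene, rose from 44.6 and 50.8 CPM to 293 and 256 (2.52 ± 0.41, adjusted p = 0.00119). Both were called without each library in turn, and their separation by genotype was part of the rule. Gja1, the gap junction protein connexin 43, was at 165 and 121 CPM against 22.8 and 22.4 (2.66 ± 0.67, adjusted p = 0.0402). Its groups lay far apart, and its call held in 0 of the 4 fits (adjusted p from 0.132 to 0.389). The same count of 0 applied to Guca1a (2.97), the chloride channel gene Ano1 (2.84), Zfp560 (2.84), Prr18 (2.83), Gm13698 (2.27) and the sulfatase gene Arsk (2.27), while the prolyl hydroxylase subunit gene P4ha2 (2.43) and Gm7102 (2.26) held in 1. Gm13698 and Gm7102 are predicted genes, whose reads may be shared with near-identical copies. Snapc3, a subunit of a transcription factor complex of small nuclear RNA genes, was among the 5 smallest p-values of the higher genes (110 and 94.8 against 32.7 and 26.5 CPM; 1.79 ± 0.30, adjusted p = 0.00149) and held in 3.

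**Figure D2:**
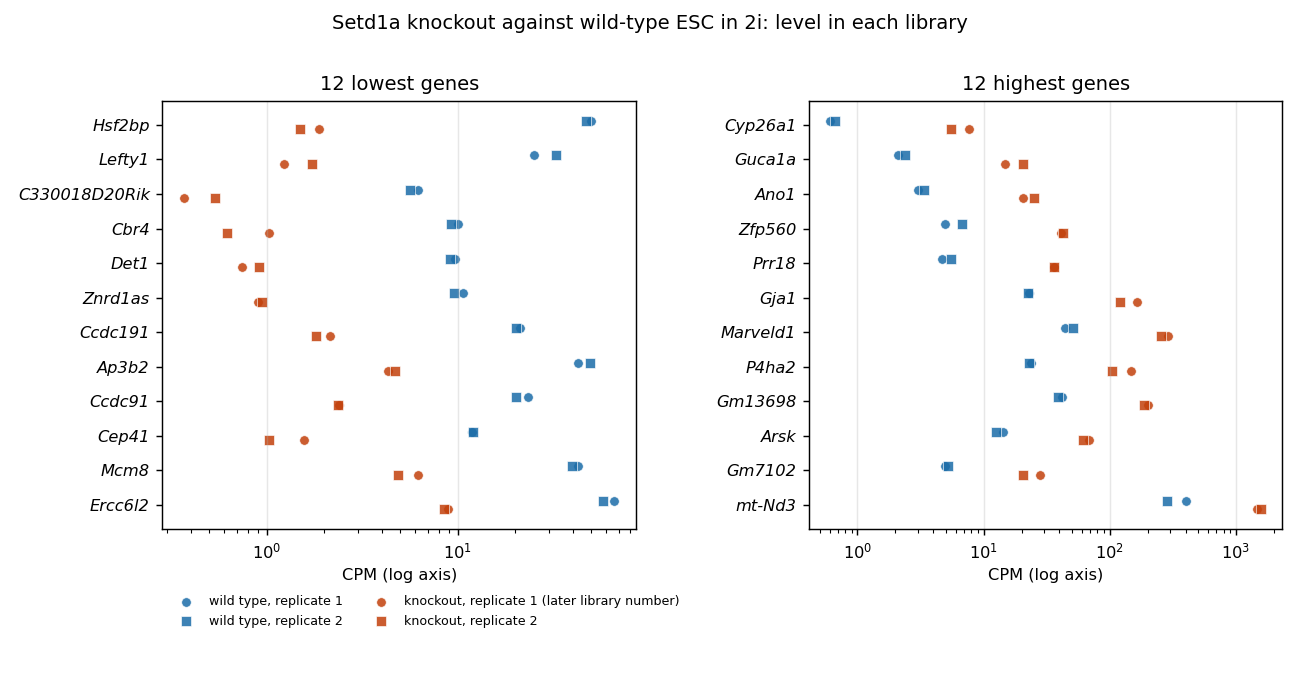
Each row is a gene and each marker the CPM of 1 library on a log axis, for the 12 lowest (left) and 12 highest (right) protein-coding genes called, with at least 5 CPM in the higher group and no overlap; orange is knockout and blue wild type, circles are replicate 1 and squares replicate 2. By that choice the knockout pair lies apart from the wild-type pair in every row. Rows run from Hsf2bp (1.89 and 1.49 against 49.9 and 46.8 CPM) to mt-Nd3 (1465 and 1584 against 405 and 287 CPM).

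Some large values rested mostly on knockout replicate 2. Lars2, the mitochondrial leucyl-tRNA synthetase, was at 269 and 10158 CPM against 461 and 331 and was called higher (3.72 ± 0.92, adjusted p = 0.0347), but without that library its log2 fold change was -0.52, and with the block it was 2.08 and did not pass. Gm42418 stood at 1258 and 28376 CPM against 1597 and 1397 (3.31 ± 0.87, adjusted p = 0.0548) and mt-Rnr1, a mitochondrial ribosomal RNA, at 598 and 2518 CPM against 360 and 179 (2.53 ± 0.60, adjusted p = 0.0261). In Lars2 and Gm42418 the groups overlapped, with knockout replicate 1 below both wild-type libraries, and in mt-Rnr1 they did not. With ribosomal repeat, mitochondrial and small RNA genes removed before scaling, 335 genes were lower and 55 higher.

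DNA repair genes were among the losses. Of 155 members of 5 repair lists, 152 were found under their symbols and 151 were tested; 25 fell and 1 rose, against 1.44% and 0.251% of all genes, and the median log2 fold change was -0.37 against 0.00. The block gave 46 lower and 2 higher, and there were 8 lower calls without knockout replicate 1, 6 without knockout replicate 2, and 8 and 10 without wild-type replicates 1 and 2.

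Homologous recombination, which rejoins a broken chromosome by copying its sister, had the largest share: 12 of 42 tested members fell and 0 rose (18 lower and 0 higher at an unadjusted p below 0.05; 12 and 0 by DESeq2), with a median of -0.52. Beside Hsf2bp and Mcm8 these included the recombination genes Rad51c (5.38 and 5.46 against 32.7 and 30.8 CPM; -2.55 ± 0.56) and Rad51b (0.698 and 0.579 against 3.42 and 3.80 CPM; -2.49 ± 0.58), and Rad50 of the MRN complex (43.0 and 36.4 against 183 and 172 CPM; -2.16 ± 0.43). Palb2, which joins recombination proteins, was at 16.4 and 13.8 CPM against 43.9 and 39.7 (-1.47 ± 0.20, adjusted p = 1.58e-04). Knockout libraries were below both wild-type ones in each of these. Abraxas1, Babam2, Swsap1, Fignl1 and Gen1 also fell, with log2 fold changes from -1.92 to -1.08. Hsf2bp, Mcm8 and Palb2 held without each library in turn, and 5 members were called without knockout replicate 1 and 3 without knockout replicate 2.

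Excision and mismatch repair had 5 of 41 members lower and 0 higher, with 11 lower under the block and 3 in each of the 4 fits that left out a library. Ercc6l2 and Parp2 were among those that held throughout. Parp2, a sensor of strand breaks, was at 14.3 and 11.7 CPM against 39.6 and 37.4 (-1.57 ± 0.22, adjusted p = 2.33e-04). Its groups did not overlap. Mlh3, a mismatch repair gene, was called at -1.26.

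Damage checkpoint signalling had 5 of 27 lower and 0 higher, with a median of -0.53. They were Atr (46.5 and 38.3 against 148 and 124 CPM; -1.68 ± 0.37), the kinase that senses stalled forks, Rad1 of the clamp that activates it (-1.09 ± 0.23), Tti1, which stabilises such kinases (-1.02 ± 0.25), the ubiquitin ligase gene Rnf168 (-0.98 ± 0.21) and the cell cycle kinase gene Wee1 (-0.75 ± 0.18). The block gave 9 lower, and 0 were called when any 1 of the 4 libraries was left out. End joining had 2 of 16 lower, Xrcc5 (50.8 and 53.1 against 161 and 151 CPM; -1.59 ± 0.35), which codes for a subunit of the Ku end-binding protein, and Xrcc4 (-1.10 ± 0.28); the block gave 7. The Fanconi anaemia list had Fance, a core complex subunit, lower (8.62 and 9.55 against 22.0 and 25.4 CPM; -1.38 ± 0.31) and the nuclease gene Ercc4 higher (123 and 148 against 49.97 and 61.8 CPM; 1.28 ± 0.28) among 25, and the block gave 3 lower and 2 higher. Each end joining and Fanconi call was lost when any 1 of the 4 libraries was left out.

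Replication and S phase genes had 2 of 49 lower and 0 higher. Orc5, a subunit of the origin recognition complex, was at 16.5 and 13.2 CPM against 68.7 and 60.4 (-2.12 ± 0.26, adjusted p = 5.42e-05), and its call held in all 4 fits. Mcm10, which helps start the replicative helicase, was at 113 and 115 CPM against 208 and 205 (-0.86 ± 0.19, adjusted p = 0.015), and its call held in 0. The list's median was -0.51, 44 of its 49 members had separated lower values against 32.8% of all genes, and 18 were lower under the block. In the G2 and mitosis list, 1 of 32 was lower, Ccnb2, a B-type cyclin (37.3 and 39.9 against 88.0 and 92.7 CPM; -1.23 ± 0.30), and the block gave 2.

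Mitochondrial genes of the nucleus and of the mitochondrial genome differed in direction. Of 38 tested genes of mitochondrial protein synthesis, 8 were lower, and the 1 higher was Lars2 described above; the median was -0.61, DESeq2 gave 15 lower and the block 19. Gatb, a subunit of the amidotransferase that finishes glutaminyl-tRNA, was at 2.38 and 1.86 CPM against 14.8 and 15.1 (-2.81 ± 0.32, adjusted p = 2.6e-05). Iars2, which charges mitochondrial tRNA with isoleucine, was at 19.8 and 17.2 CPM against 82.7 and 89.9 (-2.22 ± 0.28). The knockout values of both were below both wild-type values. Ears2 (-2.13), the initiation factor gene Mtif2 (-1.59), the elongation factor gene Gfm2 (-1.57), Pars2 (-1.42) and the tRNA methyltransferase gene Trmt5 (-1.14) were also lower. Gatb, Iars2, Ears2 and Mtif2 held without each library in turn.

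Among 79 tested mitochondrial ribosomal protein genes, 8 were lower and 0 higher, with a median of -0.40. Mrpl11 was at 6.82 and 6.95 CPM against 45.5 and 42.2 (-2.67 ± 0.35, adjusted p = 1.15e-04) and Mrpl24 at 30.2 and 33.8 CPM against 88.2 and 94.2 (-1.51 ± 0.22, adjusted p = 2.89e-04), and these 2 held without each library. Mrpl2 (-1.93), Mrpl41 (-1.36), Mrpl36 (-1.33), Mrpl38 (-1.31), Mrps10 (-1.25) and Mrpl10 (-1.19) were the others. The block gave 22 lower. The nuclear complex I list had 2 of 48 lower, both assembly factors: Timmdc1 (6.49 and 5.46 against 24.2 and 26.4 CPM; -2.08 ± 0.30), held in all 4 fits, and Foxred1 (-0.78 ± 0.20), held in 0. The block gave 6 lower.

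Of 15 mitochondrially encoded transcripts, 6 were called higher and 0 lower, with a median of 1.38 against 0.00 for all genes, and the block gave 10. The complex I gene mt-Nd1 was at 8342 and 8142 CPM against 2590 and 2100 (1.81 ± 0.31, adjusted p = 0.00171). Values of mt-Nd2 were 4412 and 3746 CPM against 1312 and 1120 (1.75 ± 0.34, adjusted p = 0.00483). Both had knockout values far above the wild-type ones, as did mt-Nd3, mt-Atp8 (1.80 ± 0.38) and mt-Atp6. Not all passed: mt-Co1 was at 16008 and 16014 CPM against 14160 and 11089 (0.34 ± 0.29, adjusted p = 0.679) and mt-Co3 at 3062 and 3238 against 2861 and 2604 (0.21 ± 0.24, adjusted p = 0.782). Leaving out knockout replicate 1 or 2 left 3 calls each, and wild-type replicate 1 or 2 left 2 and 1. In bulk RNA, more transcript per mitochondrial genome and more genomes per cell cannot be told apart, nor can a smaller number of cells of a type and less RNA per cell.

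**Figure D3:**
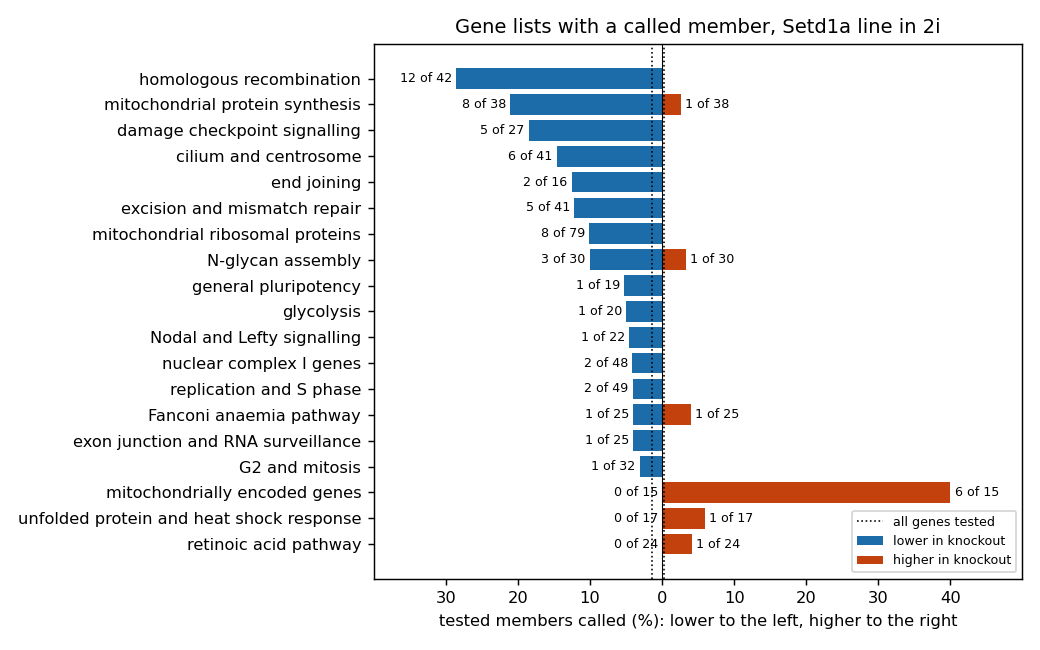
Bars give the share of each list's tested members called lower (blue, to the left) or higher (orange, to the right) in knockout cells, for the lists with any call, with counts beside them; dotted lines mark all genes tested (1.44% lower and 0.251% higher). Homologous recombination has the longest bar to the left (12 of 42) and mitochondrially encoded genes the longest to the right (6 of 15).

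Genes of the cilium and centrosome had 6 of 41 lower and 0 higher, with a median of -0.37. Beside Cep41 they were the intraflagellar transport genes Ift172 (12.2 and 12.4 against 35.7 and 39.5 CPM; -1.62 ± 0.37), Ift81 (-1.54 ± 0.29), Ift140 (-1.48 ± 0.32) and Ift88 (-1.20 ± 0.29), and the transition zone gene Cep290 (-1.08 ± 0.28). The block gave 11 lower, and 1 and 0 were called without knockout replicates 1 and 2. N-glycan assembly genes had 3 of 30 lower and 1 higher. The glucosyltransferase gene Alg8 (1.85 and 1.36 against 12.7 and 6.86 CPM; -2.60 ± 0.53) and Dpm2 (-1.01 ± 0.23) were among those that fell, and Dpm1, the catalytic partner of DPM2, rose (51.8 and 40.6 against 21.0 and 16.0 CPM; 1.32 ± 0.29). The block gave 5 lower and 3 higher, and 0 of these were called without knockout replicate 1 or 2. Exosc1 of the RNA exosome was the 1 lower gene of 25 for exon junctions and RNA surveillance (13.0 and 12.9 against 32.5 and 31.6 CPM; -1.30 ± 0.23). In glycolysis 1 of 20 was lower, Hk1 (37.8 and 42.3 against 88.2 and 106 CPM; -1.28 ± 0.31), and the block gave 9 lower and 1 higher. Cholesterol synthesis had 0 of 24 called by edgeR, 10 at an unadjusted p below 0.05, all lower, and 1 by DESeq2; its median was -0.70, and the block gave 12 lower.

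Of 25 naive pluripotency genes, 0 were called by edgeR, 2 had an unadjusted p below 0.05 and DESeq2 called 1; the median was 0.05, and the block gave 2 lower and 3 higher. Nanog was at 929 and 938 CPM against 1038 and 883 (-0.04 ± 0.71, adjusted p = 0.999) and Tfcp2l1 at 1038 and 813 against 884 and 869 (0.08 ± 0.66, adjusted p = 0.984), with overlapping groups in both. Of 19 general pluripotency genes 1 was called: Lin28a, an RNA-binding protein gene that blocks let-7 maturation, fell from 34.3 and 40.2 CPM to 6.37 and 9.72 (-2.21 ± 0.53, adjusted p = 0.0303). The groups were well separated, and the call held without 0 of the 4 libraries. Of 23 formative and primed genes, 0 were called by edgeR, 1 had an unadjusted p below 0.05 and DESeq2 called 1, and the block gave 2 lower and 3 higher.

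Of 22 tested genes of Nodal and Lefty signalling, Lefty1 was the 1 called. Lefty2, the other Lefty gene, was at 6.20 and 6.41 CPM against 73.7 and 66.4 (-3.47 ± 1.11, adjusted p = 0.138) and Nodal at 190 and 179 CPM against 80.0 and 80.8 (1.20 ± 0.54, adjusted p = 0.35). Neither passed the test, although their groups did not overlap. Both Lefty proteins are feedback inhibitors of Nodal, the ligand. The block gave 6 lower and 4 higher. Cyp26a1 was the 1 called gene of 24 in the retinoic acid pathway, whose median was 0.74. The receptor gene Rarg was at 252 and 238 CPM against 111 and 111 (1.14 ± 0.53, adjusted p = 0.37), and Stra8, a known retinoic acid target, at 125 and 123 against 158 and 155 (-0.34 ± 0.98, adjusted p = 0.933). The block gave 2 lower and 4 higher in this list.

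Target lists of ERK, Wnt and BMP signalling, the first 2 of which the inhibitors of 2i act on, had 0 calls in the main fit. DESeq2's type of size factors gave 1 higher Wnt target, and the 24 ESC libraries alone 1 higher Wnt and 1 higher BMP target. With no filter on low counts, 3 ERK, 3 Wnt and 2 BMP genes were called, all higher. The 4 libraries alone gave 2 lower and 9 higher ERK, 1 and 11 Wnt, and 1 and 4 BMP genes. For 18 ERK feedback genes the median was 0.49, 3 had an unadjusted p below 0.05 and DESeq2 called 3, all higher, and the block gave 5 higher. For 25 Wnt targets these numbers were a median of 0.34, 2 genes, 1 by DESeq2, and 1 lower and 4 higher under the block. For 15 BMP targets they were 0.33, 1, 0 and 2 higher. Spry2, an inhibitor of receptor signalling, was at 102 and 138 CPM against 80.2 and 95.4 (0.45 ± 0.25, adjusted p = 0.454), with separated groups.

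Stress and p53 genes had few calls. Of 22 p53 targets 0 were called by edgeR, 4 had an unadjusted p below 0.05 (1 lower and 3 higher) and DESeq2 called 1; the median was 0.34, and the block gave 1 lower and 6 higher. Ccng1, a direct p53 target, was at 707 and 681 CPM against 457 and 362 (0.76 ± 0.27, adjusted p = 0.2), with separated groups. The integrated stress response had 0 of 27 called by edgeR, 1 at an unadjusted p below 0.05 and 0 by DESeq2. In the unfolded protein and heat shock list the chaperone gene Dnajb9 rose (44.6 and 32.3 against 19.7 and 13.3 CPM; 1.22 ± 0.29, adjusted p = 0.0283), the 1 call of 17, where the block gave 7 higher; the call was lost when any 1 of the 4 libraries was left out.

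The 2-cell-like list, genes of a rare ESC state that resembles the early embryo, had 0 genes called in the main fit. All 19 tested members were higher in both knockout libraries than in both wild-type ones, where 33.3% of all genes were, with a median log2 fold change of 2.35. Zscan4a was at 838 and 936 CPM against 159 and 207 (2.28 ± 1.22, adjusted p = 0.444) and Zscan4c at 417 and 438 against 70.3 and 86.5 (2.45 ± 1.25, adjusted p = 0.417). The SE of both is over 1 log2 unit, and 4 members had an unadjusted p below 0.05. The main edgeR fit and DESeq2 called 0. The block called 17, edgeR with no filter on low counts 14 and edgeR with the 4 libraries alone 17, all higher. The Zscan4 genes are near-identical copies, so their single values are uncertain. Imprinted genes had 0 of 28 called by edgeR, 4 at an unadjusted p below 0.05, 2 by DESeq2 and 1 lower and 10 higher under the block; the non-coding Kcnq1ot1 was at 353 and 487 CPM against 146 and 135 (1.58 ± 0.48, adjusted p = 0.115). Lists of primitive endoderm (18 tested), mesendoderm (15), neural (15), trophoblast (13), feeder (20), germline (24), Hox (21), DNA methylation (11), replication-dependent histone (25) and estrogen receptor target genes (12) had 0 called by edgeR. At an unadjusted p below 0.05 they had 3, 1, 1, 2, 0, 1, 0, 1, 5 and 0 genes, and DESeq2 called 1 primitive endoderm gene and 0 of the rest. The block called 7, 1, 1, 3, 6, 8, 0, 2, 3 and 1, of which the germline list had 6 lower and 2 higher, the primitive endoderm list 1 and 6, and the feeder list 1 and 5.

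The lowered genes of 2i were also lower in the other media of the Setd1a line, which share no library with 2i. In FCS, 174 genes were called lower (0.74%), and 149 of these were among the 338, which is 85.6% of the FCS calls and 44.1% of the 2i calls. In EpiSC medium 361 genes were called (1.54%), 328 of them lower (1.4%), and 206 of these were shared, 62.8% and 60.9%. Both media shared 130, and 113 of the 338 were called in neither. The 338 had median log2 fold changes of -1.55 in 2i, -1.20 in FCS and -1.38 in EpiSC medium, against 0.05 and 0.08 for all genes in the latter 2. There 333 and 337 of them had a negative sign, against 44.1% and 43.9% of all genes. Without EpiSC knockout or wild-type replicate 1, the libraries with the highest feeder marker sums, 101 and 342 genes were lower in EpiSC medium (0.41% and 1.38%), 85 and 171 of them shared, and the median of the 338 was -1.34 and -1.43. Without EpiSC knockout or wild-type replicate 2 these were 267 and 122 lower genes, 151 and 106 of them shared, and medians of -1.49 and -1.29. Det1 was near constant, at -3.51, -3.38 and -3.06, and so was Ercc6l2, at -2.83, -2.78 and -2.60.

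Calls among the 59 higher genes were seldom shared: FCS had 5 higher calls (0.0213%), 2 of them shared, EpiSC medium 33 (0.14%), 8 of them shared (0 of 1, 6 of 51, 15 of 144 and 1 of 2 in the same 4 fits), and 51 of the 59 were called in neither. Their medians were 1.97 in 2i, 0.32 in FCS and 0.87 in EpiSC medium, and 42 and 54 of them had a positive sign in the latter 2. These are 71.2% and 91.5% of the 59, where 44.1% and 43.9% of all genes had a negative sign. Cyp26a1 was at 3.36, -0.02 and 0.86, and Gja1 at 2.66, -0.11 and 0.48. The test of the difference itself, the 2i effect minus the mean of the FCS and EpiSC effects, called 0 genes by edgeR (0% in either direction), where 603 had an unadjusted p below 0.05 and DESeq2 called 9. Against FCS alone and EpiSC medium alone it also called 0, with 695 and 414 at an unadjusted p below 0.05. So an effect particular to 2i was not shown for Ap3b2 (-3.34, -1.03 and -0.50) or Lefty1 (-4.28, -1.49 and -1.20) either. The block gave 52 genes for the difference, and leaving out knockout replicate 1 gave 8, all higher in 2i.

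Bod1L loss in 2i, measured in another line with its own wild type, gave 86 lower genes (0.366%), of which 80 were among the 338, 93.0% of the Bod1L calls and 23.7% of the Setd1a calls. The 338 had a median of -0.99 in that line, and 336 (99.4%) had a negative sign, against 48.5% of all genes. Hsf2bp was at -2.72 with Bod1L loss against -4.84 with Setd1a loss, and Ccdc191 at -3.64 against -3.39. The test of Setd1a minus Bod1L in 2i called 0 genes by edgeR (0% in either direction), with 424 at an unadjusted p below 0.05, 1 by DESeq2 and 11 with the block. The 1 raised gene that both lines shared was 1 of 2 higher calls with Bod1L loss (0.00851%).

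Mll2 loss in 2i shared few calls with Setd1a loss. It gave 101 lower genes (0.43%), of which 5 were among the 338. That is 4.95% of its lower calls, where 1.44% of all genes were lower with Setd1a loss. The 338 had a median of -0.17 with Mll2 loss, against -0.04 for all genes. Of the 338, 234 (69.2%) were negative there, against 52.5% of all genes. Of the 8 genes higher with Mll2 loss (0.034%), 0 were among the 59, of which 29 had a positive sign there. Among the 59, 1 was called lower with Mll2 loss, Dhtkd1, a mitochondrial dehydrogenase gene (1.83 ± 0.35 with Setd1a loss and -1.66 ± 0.35, adjusted p = 0.0276, with Mll2 loss), named after its values were seen. The targeted gene of that line, Kmt2b, had a log2 fold change of 0.05 ± 0.29 (adjusted p = 0.988), a gene total that includes any reads from outside a deletion and so does not check the labels, where Bod1l was at -1.75 ± 0.24 (adjusted p = 7.84e-04) in its own line. The test of Setd1a minus Mll2 in 2i called 97 genes, 54 with the lower effect under Setd1a loss (0.23%) and 43 with the higher (0.183%). Det1 differed by -3.53 (-3.51 against 0.02), Ercc6l2 by -2.70 (-2.83 against -0.13), and Fzd6, a Wnt receptor gene, by 4.85. Fzd6 did not pass in the Setd1a line (17.9 and 16.2 against 9.59 and 10.2 CPM; 0.78 ± 0.38, adjusted p = 0.386) and had a log2 fold change of -4.06 in the Mll2 line, so most of its difference lay there. The 97 became 301 without Mll2 wild-type replicate 1 and 27 without Setd1a knockout replicate 2, and it was 56, 39 and 35 without Setd1a knockout replicate 1 and wild-type replicates 1 and 2, and 46, 51 and 62 without Mll2 knockout replicates 1 and 2 and wild-type replicate 2. By DESeq2 it was 357 and with the block 1462.

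**Figure D4:**
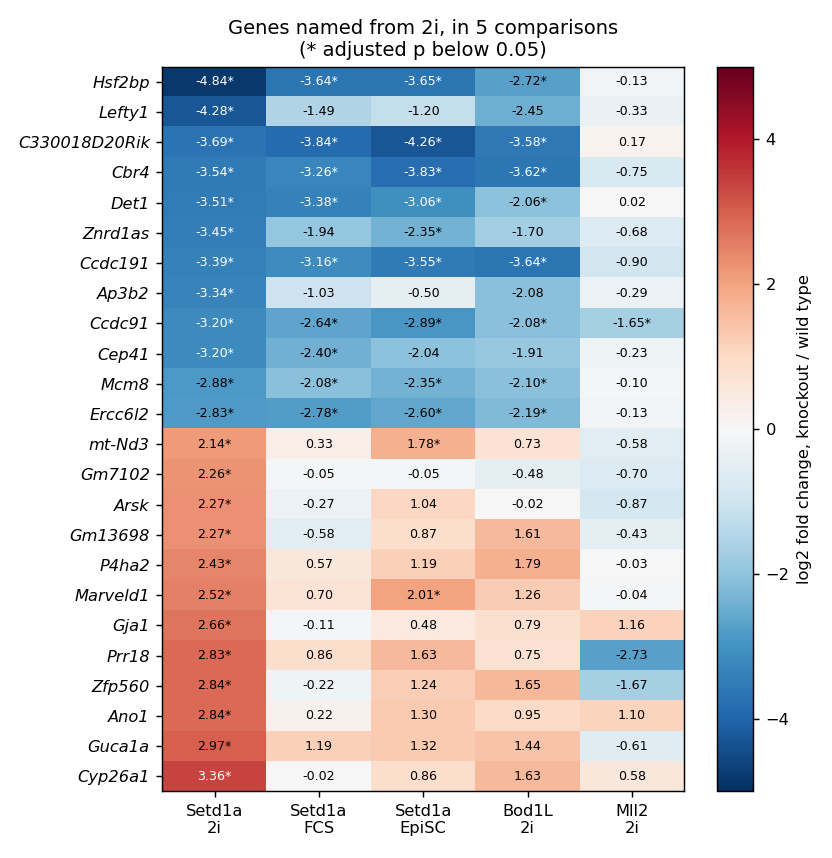
Rows are the 12 lowest and 12 highest genes of Setd1a loss in 2i, columns are 5 comparisons of knockout with wild type, and cells give the log2 fold change, coloured from blue (lower) to red (higher), with a star at an adjusted p below 0.05. The lowest genes stay blue in the other media of the Setd1a line and with Bod1L loss, with Hsf2bp at -4.84, -3.64, -3.65 and -2.72, and with Mll2 loss they run from -1.65 (Ccdc91, the 1 with a star there) to 0.17; most of the highest genes are paler outside the first column, and Prr18 (-2.73) and Zfp560 (-1.67) turn blue with Mll2 loss, without a star.

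The lowered genes more often started beside another gene. A partner that starts within 1000 bp on the opposite strand (head to head, where 1 stretch of DNA serves both starts) was found for 96 of the 313 lower protein-coding genes (30.7%), for 2114 of all 16731 tested (12.6%), for 15.9% of those at 5 CPM or more and for 4 of the 46 higher ones (8.70%). Of the 96 partners, 2 were called lower and 0 higher, where 1.44% and 0.251% of all genes tested were. The 2 lower partners belong to 1 pair, D3Ertd751e (-2.53 ± 0.39) and Sclt1 (-2.02 ± 0.35), 97 bp apart. All tested genes gave 2130 entries of a gene with its partner, in which each pair is counted from both sides. The 96 lower and 4 higher partners there are thus the same called genes counted again, and give no separate rate. The partners had a median log2 fold change of -0.10, against -0.14 for the partners in all such pairs. These counts are descriptions with no test.

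Single pairs are given as examples, whose partners were chosen after their values were seen. Trmt6 starts 86 bp from Mcm8 and was at 87.3 and 76.8 CPM against 94.8 and 83.0 (-0.12 ± 0.23, adjusted p = 0.881), where Mcm8 was at -2.88. The groups of Trmt6 overlapped while those of Mcm8 did not. Tex14, 111 bp from Rad51c, was at 48.7 and 46.6 CPM against 104 and 98.5 and did not pass either (-1.09 ± 0.67, adjusted p = 0.521), although its groups were separate.

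**Figure D5:**
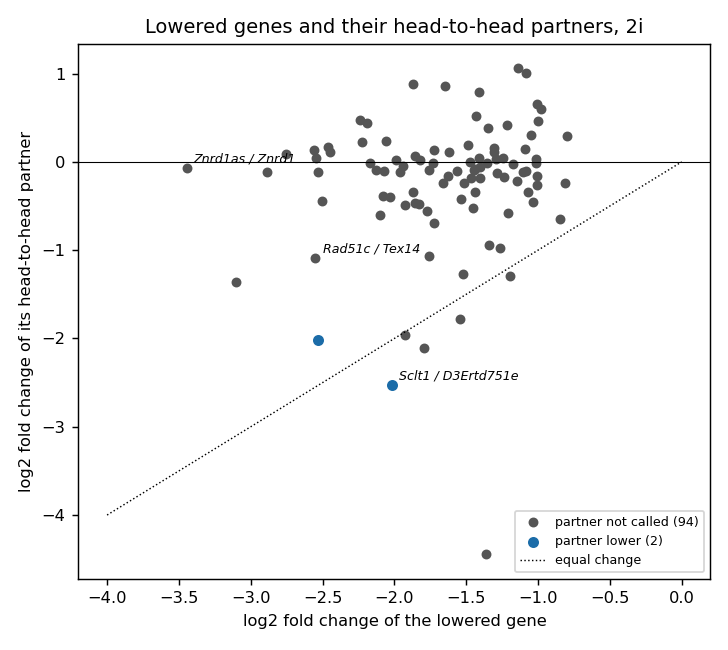
Each point is 1 of the 96 lower protein-coding genes with a head-to-head partner; the horizontal axis is its log2 fold change and the vertical axis that of its partner. Most partners lie near 0 and far above the dotted line of equal change, 2 are called lower (blue), and the lowest point is Mdh1b, the partner of Fastkd2, which held 0 to 0.0916 CPM in the 4 libraries.

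A RefSeq promoter window was matched by symbol for 255 of the 313 lower protein-coding genes, 37 of the 46 higher and 12831 of all 16731. The ETS letters CCGGAAG, read on both strands as for every motif here, were in 29.8% of the windows of lower genes, 15.5% of all, 20.3% of those of genes at 5 CPM or more, and 8.11% of those of higher genes. Of the 12 lowest genes 9 had a window under a narrower rule than that of these shares. It left out chromosome 18 and windows over 100 bases from the gene's start in the Ensembl models. Of the 9, 3 held these letters, the windows of Det1, Mcm8 and Ccdc91 printed above. The NRF1 letters, GCGCA and then GCGC after any 1 base between them, were in 16.5% of lower, 8.78% of all, 11.6% of those at 5 CPM or more and 10.8% of higher windows, and the YY1 letters AAGATGGC in 8.63%, 3.93%, 5.19% and 2.70%. In the same order, the E-box CACGTG was in 15.3%, 9.46%, 10.8% and 13.5% of windows, so its share in higher genes was close to that in lower ones, and the CRE letters TGACGTCA in 5.10%, 2.93%, 3.48% and 2.70%. The SP letters GGGCGG were in 63.5%, 59.7%, 67.7% and 67.6%, with lower genes above all genes and below those at 5 CPM or more, and CCAAT in 38.0%, 38.7%, 39.9% and 51.4%. TATAAA was in 5.10%, 8.06%, 6.10% and 18.9%. Windows of lower genes held a median of 22 CpG dinucleotides, as did those at 5 CPM or more, against 19 in all and 18 in higher ones. A match of letters is a description of a window and no binding site.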

How the data were processed

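Counts of strand-specific, single-end RNA-seq reads per gene were deposited in 1 table. Per the file headers they come from featureCounts 1.5.2, run reverse-stranded on primary alignments of mapping quality 1 or more, with gene models of Ensembl 87. GSNAP and GRCm38 (mm10) are named in the submitters' processing notes. RNA was poly(A)-selected and rRNA-depleted, per the labels' protocols. Of 49763 lines, 92 spike-ins held 0 counts and were removed. Depth was 24.5 to 40.6 M counts per library. Symbols came from GENCODE M21.

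From these counts, edgeR 4.0.16 (R 4.3.3) fitted 1 model of 18 groups to all 36 libraries (TMM factors, quasi-likelihood F test, 18 residual degrees of freedom), after filterByExpr at a minimum count of 10. Every adjusted p is an edgeR Benjamini-Hochberg value over the 23501 genes tested unless DESeq2 (1.42.0) is named, and is called below 0.05. Calls by edgeR are those of this main fit unless another fit is named. SE are those of the log2 fold changes. The fit was tested on simulated counts. Replicate differences of knockout and wild-type cells correlated at 0.40 to 0.85 in all 9 line and medium pairs, 0.50 here. The labels state no pairing, so it was inferred from these data, and a fit with 18 pairs as a block (9 residual degrees of freedom) was run beside the main one. Other alternatives changed the size factors, the filter, the tool, the genes or the libraries.

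Genes named were Setd1a, COMPASS genes, the 12 lowest and 12 highest calls among protein-coding genes with 5 CPM or more in the higher group and no overlap, the 5 smallest p-values each way, up to 4 calls per list, or 2 of the most abundant members where under 2 were called, up to 3 per difference between comparisons, and ribosomal repeat genes. The remaining names were picked after their values were seen. The members of the comparison and the 41 lists (1023 genes, 1002 tested) were chosen with earlier results of these data known. Some genes are not reported. Promoter windows are RefSeq's (GRCm38.p6).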

Additional observations from a re-analysis of the deposited data

Results flagged for a closer look

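The effect of Setd1a loss in 2i differed from that of Mll2 loss in the same medium for 97 genes by the edgeR test of the difference, with 1936 at an unadjusted p below 0.05. The 3 with the smallest p were Det1, with a difference in log2 fold change of -3.53 (-3.51 with Setd1a loss, 0.02 with Mll2 loss), Ercc6l2, with -2.70 (-2.83 and -0.13), and Fzd6, with 4.85 (0.78 and -4.06). The 2 lines have different wild-type cells, and line and targeted gene cannot be told apart.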

How the results depend on the processing

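The count of 397 genes called in 2i was 329 with DESeq2's type of size factors in edgeR, 390 with ribosomal repeat, mitochondrial and small RNA genes removed, and 498 with the 24 ESC libraries alone. It was 775 with no filter on low counts (338 lower and 437 higher), 825 with DESeq2 (516 and 309), 2910 with the replicate block (1505 and 1405) and 7029 with the 4 libraries alone, a fit with 2 residual degrees of freedom (3383 and 3646). The share of higher calls was thus 14.9% in the reported fit, 24.7% with the ESC libraries alone, 37.5% with DESeq2, 48.3% with the block, 51.9% with the 4 libraries and 56.4% with no filter. Leaving out each of the 4 libraries gave 73 to 145. For the 2i effect minus that in the other media, where 0 were called, no filter gave 63, DESeq2 9 and the replicate block 52, and leaving out a library gave 0 to 8, with 8 only without Setd1a knockout replicate 1 in 2i. For Setd1a minus Bod1L, also 0, they gave 23, 1 and 11, and leaving out a library gave 0. For Setd1a minus Mll2, 97, they gave 559, 357 and 1462, the 24 ESC libraries 254 and leaving out a library 27 to 301. The 361 genes called in EpiSC medium became 102 to 411 when each of its 4 libraries was left out, an alternative chosen after seeing the data. DESeq2's type of size factors moved the median log2 difference of all genes in that comparison from 0.06 to 0.14 and that of the 2i comparison from 0.00 to 0.09. Setd1a itself was at -0.35 and passed the test only with the 4 libraries alone (-0.32, adjusted p = 0.0374); leaving out a library gave -0.39 to -0.26. Lars2 (3.72) reversed to -0.52 without knockout replicate 2 and was at 4.70 without knockout replicate 1. Of the 68 named genes called, 68 kept their call with DESeq2, 67 with the block, 61 with DESeq2's type of size factors, 59 with the ESC libraries, 57 with no filter, and 26 to 29 without 1 library. The cause of these shifts was not tested. With 2 libraries per group, the SE of about 0.2 to 1.2 log2 units on the genes named limits what could be called.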
